A study of Homo sapiens with 20 samples.

Results

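A set of 10 named outputs and feedback regulators of the ERK pathway were followed in 2 human melanoma cell lines, A375 and 1205Lu, with and without silencing of FOSL1, the gene that encodes the AP-1 transcription factor FRA1. The 10 genes are the ERK phosphatases DUSP4, DUSP5 and DUSP6, the pathway inhibitors SPRY2, SPRY4, SPRED1 and SPRED2, the ETS transcription factors ETV4 and ETV5, and PHLDA1. They were taken by name, each had 1 row among the 58870 of the gene table, and all 10 passed the filter on low counts in both lines, with no fewer than 615 counts in any sample. FRA1 peaks that overlapped one of these genes or the 50 kb on either side of it were taken as well, 69 of the 54563 in the peak table.

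RNA-seq was available for 12 samples, 3 for each line with the control siRNA (si-NT) and 3 for each line with the siRNA against FOSL1 (si-FOSL1). Cut&Run, in which an antibody brings a nuclease to the DNA beside a bound protein, was available for 3 samples with an antibody against FRA1 and 1 sample with IgG in each line. No other agent, allele or time after transfection is given in the sources used here, and no label says that replicates came from separate cultures, so p-values measure the spread between these samples, which may be technical. The RNA-seq totals lay between 20573412 and 32518903 counts per sample. MITF, a melanocyte lineage factor, lay between 51.1 and 67.5 CPM (counts scaled to a common library size) in A375 and between 2.73 and 4.01 CPM in 1205Lu, SOX10 lay between 32.1 and 45.4 CPM in A375 and between 767 and 912 CPM in 1205Lu, and the pigment genes PMEL, MLANA, TYR, DCT and TYRP1 did not exceed 1.42 CPM in either line. Of 9 keratinocyte, leukocyte and endothelial markers, 8 stayed below 2 CPM in every sample and KRT10 lay between 34.2 and 46.7 CPM.

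ERK is the last kinase of the cascade that runs from RAS through RAF and MEK, and melanomas commonly carry mutations in BRAF or NRAS that keep the cascade active. Active ERK induces genes whose products act back on the pathway: DUSP phosphatases remove the activating phosphates from ERK, while Sprouty (SPRY) and SPRED proteins restrain signalling above it at the level of RAS and RAF. ETV4, ETV5, PHLDA1 and FOSL1 are themselves known as genes that ERK activity induces, and for that reason such genes are often read as a measure of pathway output.

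FOSL1 mRNA was reduced by si-FOSL1 in both lines. In A375, FOSL1 stood at 413, 424 and 407.5 CPM in the si-NT samples and at 25.7, 25.7 and 26.0 CPM in the si-FOSL1 samples, a log2 fold change of -4.01 (SE 0.0300). In 1205Lu, FOSL1 stood at 492, 484 and 478 CPM against 69.4, 70.9 and 65.1 CPM, a log2 fold change of -2.84 (SE 0.0291). The groups did not overlap in either line, and the fall was larger in A375 (log2 difference -1.19, SE 0.0443, edgeR adjusted p = 1.2e-16). The label of A375 si-FOSL1 replicate 3 names its library source as genomic, and its FOSL1 level, 26.0 CPM, was that of its group.

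The first comparison asked how the 10 genes respond to silencing of FOSL1 in each line. In A375, all 10 passed the test, 4 higher and 6 lower, while 50.8% of the 16899 genes tested passed it, 25.7% higher and 25.1% lower. DUSP6, SPRY2 and SPRY4 rose by 34.3% to 61.1%, DUSP5 fell by 35.9%, and the other 6 genes moved less, from a rise of 8.21% for SPRED1 to ETV4, which fell by 17.8%. In 1205Lu, 8 of 10 passed, 5 higher and 3 lower, against 40.5% of the 17136 genes tested (20.6% higher and 19.9% lower), and SPRED1 moved most, with a rise of 47.6%. No gene of the 10 changed by more than 1 on the log2 scale in either line, a limit that 5.56% of genes passed together with the test in A375 and 3.13% in 1205Lu. Among genes with at least 10 counts in every sample, as the 10 have, 8509 of 15168 passed the test in A375 and 7021 of 14812 in 1205Lu.

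**Figure D1:**
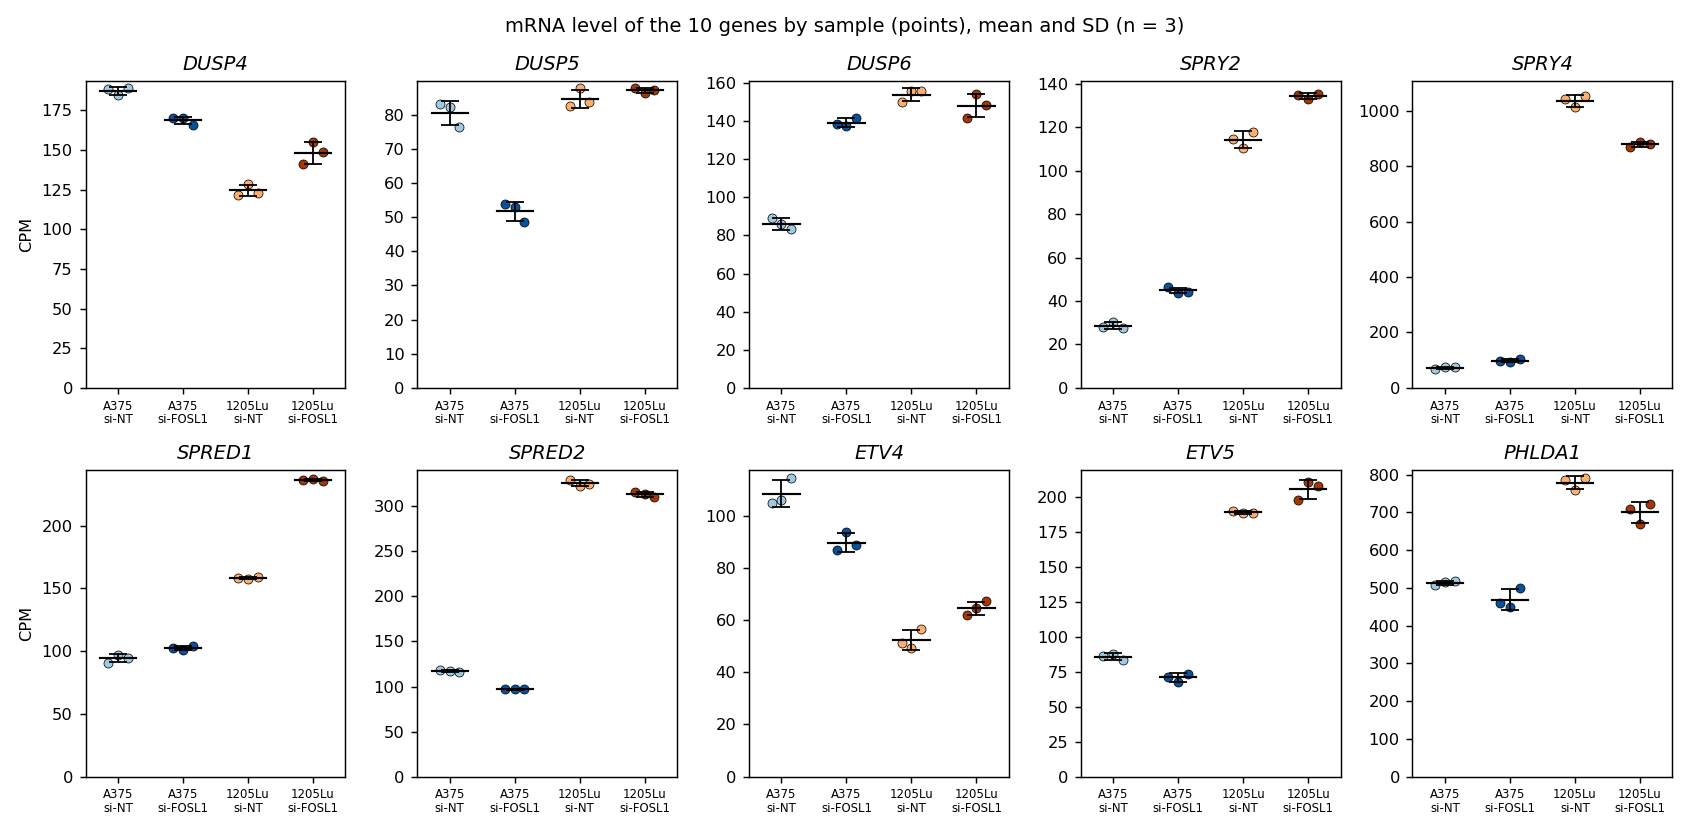
mRNA level (CPM, each panel with its own axis from 0) of each of the 10 genes in the 12 RNA-seq samples. Points are samples, horizontal lines are means and error bars are SD (n = 3). The si-NT and si-FOSL1 samples do not overlap for any gene in A375, and overlap for DUSP5 and DUSP6 in 1205Lu.

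The median log2 fold change of the 10 genes was -0.15 in A375, where the median of all genes tested was -0.003, and 0.06 in 1205Lu, where it was -0.005. The median absolute change was 0.28 for the 10 genes and 0.27 for all genes in A375, and 0.19 and 0.24 in 1205Lu. The groups of samples did not overlap for 10 of 10 genes in A375 (56.8% of all genes) and for 8 of 10 in 1205Lu (49.3%). Among the 10, DUSP5 and DUSP6 passed the test in A375 and not in 1205Lu, SPRY2 and SPRED1 were higher in both lines, SPRED2 and PHLDA1 were lower in both, and 4 passed in opposite directions: SPRY4 was higher in A375 and lower in 1205Lu, while DUSP4, ETV4 and ETV5 were lower in A375 and higher in 1205Lu. The shares of all genes in these classes were not computed, so the counts say nothing particular to the 10.

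Among the phosphatases, the 3 genes moved differently from one another in A375. DUSP6, which acts on ERK in the cytoplasm, stood at 89.4, 85.7 and 83.1 CPM with si-NT and at 138.5, 137 and 142 CPM with si-FOSL1 in A375. Every si-FOSL1 sample lay above every si-NT sample, and the log2 fold change was 0.69 (SE 0.0333, edgeR adjusted p = 1.7e-14). In 1205Lu, DUSP6 stood at 150.0, 156 and 156 CPM against 142, 154 and 148.5 CPM. One si-FOSL1 sample lay within the range of the si-NT samples, and the log2 fold change of -0.07 (SE 0.0310, edgeR adjusted p = 0.076) did not pass. It passed with at least 10 counts in every sample (log2 -0.08, edgeR adjusted p = 0.029) and without 1205Lu si-FOSL1 replicate 2 (log2 -0.09, edgeR adjusted p = 0.039). An unnamed lncRNA on the opposite strand (ENSG00000274021) covers 28.6% of the annotated exon bases of DUSP6, and although the libraries were made strand-specific, the strand setting used for counting is not given in the sources used here.

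DUSP5, a nuclear phosphatase of ERK, went from 83.1, 82.1 and 76.5 CPM in the si-NT samples to 53.7, 52.9 and 48.6 CPM in the si-FOSL1 samples of A375. The groups were well apart, and the fall of 0.64 on the log2 scale (SE 0.0461, edgeR adjusted p = 2.8e-11) was the largest decrease among the 10 genes in this line. In 1205Lu its values were 82.5, 87.7 and 83.6 CPM against 87.8, 86.3 and 87.2 CPM, which overlapped (log2 fold change 0.03, SE 0.0370, edgeR adjusted p = 0.61, 95% interval -0.05 to 0.10). DUSP4, a nuclear phosphatase of the MAP kinases, moved in opposite directions. In A375 the si-NT samples held 189, 184 and 189 CPM and the si-FOSL1 samples 170.0, 170.0 and 166 CPM (log2 fold change -0.16, SE 0.0260, edgeR adjusted p = 1.9e-05). In 1205Lu the values were 122, 129 and 123 CPM against 141, 155 and 148.5 CPM (log2 fold change 0.23, SE 0.0337, edgeR adjusted p = 9.4e-06). Both DUSP4 changes were small, and neither pair of groups overlapped.

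Sprouty genes were higher with si-FOSL1 in A375. SPRY2, an inhibitor of receptor-driven RAS to ERK signalling, rose from 27.8, 30.5 and 27.5 CPM to 46.3, 43.8 and 44.4 CPM (log2 fold change 0.64, SE 0.0556, edgeR adjusted p = 7.7e-10). It rose in 1205Lu too, from 114.5, 110.4 and 118 CPM to 135, 133 and 135 CPM, by 0.22 on the log2 scale (SE 0.0321, edgeR adjusted p = 1.5e-05). SPRY2 in A375 with si-FOSL1 remained below each 1205Lu sample. SPRY4, another Sprouty inhibitor, rose in A375 from 68.8, 75.8 and 74.2 CPM to 98.0, 94.0 and 103 CPM (log2 fold change 0.43, SE 0.0421, edgeR adjusted p = 7.6e-09). In 1205Lu it fell from a far higher level, from 1043, 1014 and 1055 CPM to 868, 889 and 879.5 CPM (log2 fold change -0.26, SE 0.0160, edgeR adjusted p = 7.8e-11). All si-FOSL1 samples of SPRY4 were above the si-NT samples in A375 and below them in 1205Lu.

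The SPRED genes, whose products bind neurofibromin and hold RAS in check, did not move together. SPRED1 in 1205Lu stood at 158, 157 and 159 CPM with si-NT and at 236, 237 and 235 CPM with si-FOSL1. This was the largest change among the 10 genes in 1205Lu (log2 fold change 0.56, SE 0.0241, edgeR adjusted p = 2.3e-13). In A375, SPRED1 stood at 90.8, 97.0 and 94.6 CPM against 102, 101 and 104 CPM (log2 fold change 0.11, SE 0.0347, edgeR adjusted p = 0.0084). The A375 groups did not overlap, but without A375 si-NT replicate 1 the SPRED1 change did not pass the test (log2 fold change 0.09, edgeR adjusted p = 0.053).

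SPRED2 in A375 went from 118, 117 and 116 CPM (si-NT) to 96.9, 96.8 and 97.5 CPM (si-FOSL1), a fall of 0.28 on the log2 scale (SE 0.0310, edgeR adjusted p = 6.7e-08). Its replicates were the closest of the 10 genes in A375, with a coefficient of variation of 0.813% and 0.399% in the 2 groups. In 1205Lu it had 329, 323 and 325 CPM against 316, 314 and 309.9 CPM (log2 fold change -0.07, SE 0.0210, edgeR adjusted p = 0.0088). In 1205Lu SPRED2 thus fell by 4.9%, a change that no longer passed without si-NT replicate 1 (edgeR adjusted p = 0.066), without si-FOSL1 replicate 3 (0.070), with all 12 samples in one fit (0.059) or without the filter on low counts (0.17).

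ETV4 and ETV5, PEA3-family ETS factors that carry transcriptional output of the pathway, fell in A375 and rose in 1205Lu. ETV4 stood at 105, 106 and 114 CPM with si-NT and at 86.7, 93.6 and 88.6 CPM with si-FOSL1 in A375 (log2 fold change -0.28, SE 0.0385, edgeR adjusted p = 1.3e-06). In 1205Lu it rose from 51.0, 49.4 and 56.6 CPM to 62.1, 64.4 and 67.1 CPM (log2 fold change 0.29, SE 0.0502, edgeR adjusted p = 0.00010). The change in ETV4 was thus of much the same size in each line and of opposite sign. ETV5 stood at 86.2, 87.6 and 83.2 CPM against 71.2, 67.7 and 73.5 CPM in A375 (log2 fold change -0.28, SE 0.0397, edgeR adjusted p = 2.3e-06). In 1205Lu, ETV5 stood at 189.9, 188 and 188 CPM against 197, 210.2 and 208 CPM (log2 fold change 0.10, SE 0.0259, edgeR adjusted p = 0.0031). Neither gene had overlapping groups in either line.

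PHLDA1, a pleckstrin homology-like domain protein induced by growth factors, was among the most abundant of the 10 mRNAs and fell slightly in both lines. In A375 the si-NT samples held 506, 515 and 519 CPM and the si-FOSL1 samples 459, 448 and 500.4 CPM (log2 fold change -0.14, SE 0.0280, edgeR adjusted p = 0.00027). In 1205Lu it had 785, 759 and 791 CPM against 710.1, 669 and 722 CPM (log2 fold change -0.17, SE 0.0236, edgeR adjusted p = 6.2e-06). The si-FOSL1 samples were lower without overlap in both lines, although A375 si-FOSL1 replicate 3 lay close to the lowest si-NT sample.

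**Figure D2:**
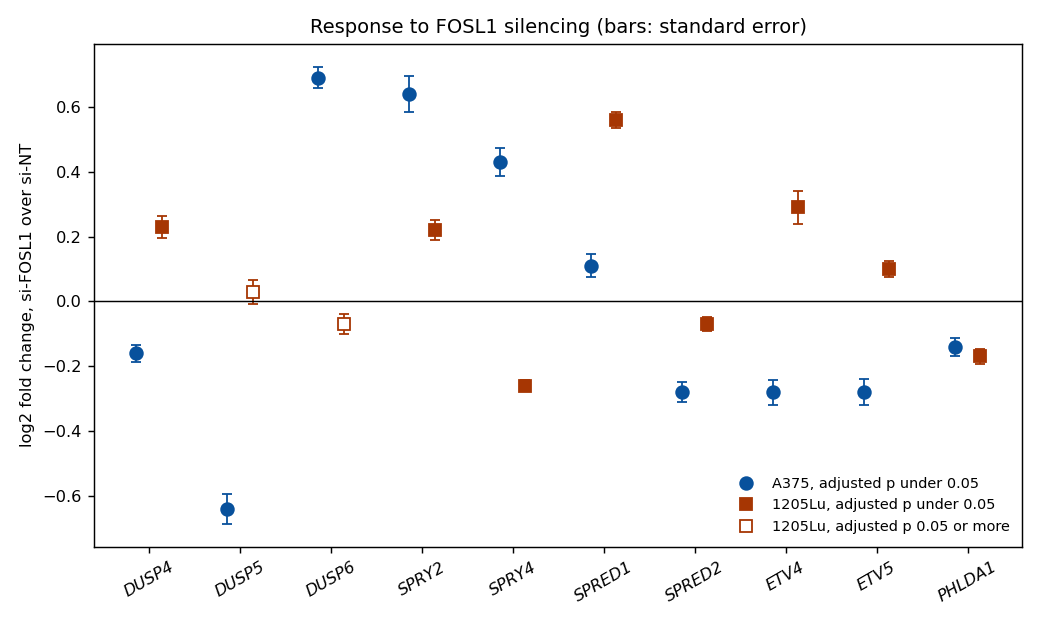
Log2 fold change of si-FOSL1 over si-NT for each of the 10 genes in A375 (circles) and 1205Lu (squares), with its standard error. Filled symbols passed the test at an adjusted p under 0.05. The symbols of DUSP5, DUSP6, SPRY4 and ETV4 lie furthest apart between the lines, and those of PHLDA1 lie side by side.

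The difference between the responses of the lines was tested next, as the A375 log2 fold change minus that of 1205Lu in one fit of the 12 samples. It passed the test for 9 of 10 genes, against 31.9% of the 19452 genes tested (15.3% positive and 16.6% negative), and the largest differences were those of DUSP6 (0.75, SE 0.0481, edgeR adjusted p = 4.4e-12), DUSP5 (-0.68, SE 0.0598, edgeR adjusted p = 1.4e-09) and SPRY4 (0.67, SE 0.0422, edgeR adjusted p = 3.0e-12). Under the filter of at least 10 counts in every sample, which all 10 genes met, 6130 of 13399 genes passed, a larger share than that of all genes. None of the 10 differences exceeded 1 on the log2 scale (0 of 10, against 5.09% of all genes). Of the 9, DUSP6, SPRY4 and SPRY2 (0.42) were positive. ETV4 (-0.58), SPRED1 (-0.46), DUSP4 (-0.40), ETV5 (-0.39) and SPRED2 (-0.22) were negative, as DUSP5 was. For PHLDA1 the difference was 0.02 (SE 0.0429, edgeR adjusted p = 0.74), with a 95% interval of -0.06 to 0.11. The smaller residual level of FOSL1 in A375 moved with these differences, and its part in them was not tested.

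For every gene of the 10 except DUSP5, the level with si-NT differed more between the lines, on the log2 scale, than it changed upon silencing in either line. With si-NT, 9 of 10 genes differed between A375 and 1205Lu, where 75.9% of all genes did, 2 of them higher in A375 (39.8% of all genes) and 7 lower (36.1%). Of genes with at least 10 counts in every sample, 10906 of 13399 differed. SPRY4 stood at 72.9 ± 3.70 CPM (SD, n = 3) in A375 and at 1037 ± 21.4 CPM (SD, n = 3) in 1205Lu, 14.2-fold higher in 1205Lu (log2 A375 over 1205Lu -3.83, SE 0.0316, edgeR adjusted p = 5.3e-32). SPRY2 was 3.99-fold, SPRED2 2.78-fold, ETV5 2.20-fold, DUSP6 1.79-fold, SPRED1 1.68-fold and PHLDA1 1.52-fold higher in 1205Lu. ETV4 (2.07-fold) and DUSP4 (by 50.5%) were higher in A375. DUSP5 did not pass the test (log2 A375 over 1205Lu -0.07, SE 0.0414, edgeR adjusted p = 0.13), although it did, lower in A375, with DESeq2 (-0.13, adjusted p = 0.012) and under 3 other settings. Both Sprouty and both SPRED genes were thus higher in 1205Lu, and a difference past 1 on the log2 scale was seen for 5 of 10 genes, against 40.6% of all genes.

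Per exon length, the order of the 10 genes differed between the lines. In A375 with si-NT, PHLDA1 led with 86.8 ± 1.07 CPM per kb of exon (SD, n = 3), followed by DUSP5 (31.8) and ETV4 (30.9), whose samples overlapped, and SPRY2 was last with 8.90 CPM per kb. In 1205Lu with si-NT, SPRY4 led with 158 ± 3.27 CPM per kb, ahead of PHLDA1 (132) and SPRED2 (59.1), and ETV4 was last with 14.9 CPM per kb. SPRY2, DUSP5 and ETV5 were neighbours there at 35.6, 33.4 and 32.7 CPM per kb, with overlapping samples between each and the next. After silencing, DUSP6 moved from the fifth to the second place in A375, at 36.1 CPM per kb, and DUSP5 from the second to the fifth, at 20.4 CPM per kb. SPRY4 and PHLDA1 kept the first 2 places in 1205Lu with si-FOSL1, at 134 and 118 CPM per kb.

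**Figure D3:**
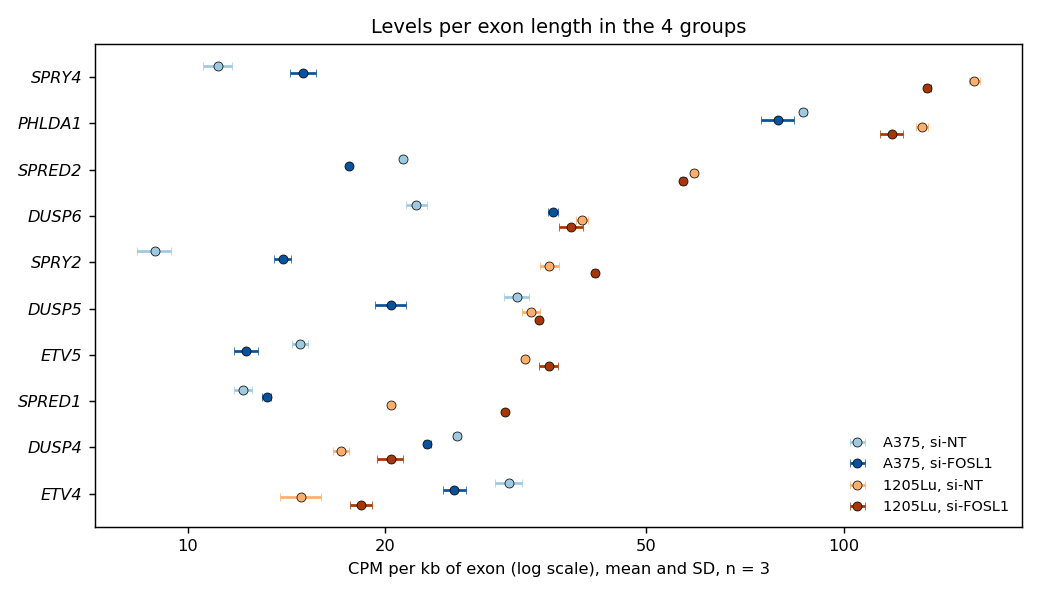
Level of the 10 genes in CPM per kb of annotated exon (log axis), as mean and SD (n = 3) for each of the 4 groups. Genes are ordered by their level in 1205Lu with si-NT. SPRY4, SPRY2 and SPRED2 show the widest gaps between the lines, and in every case the gap is wider than the shift within a line upon silencing.

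Other genes of the pathway, in lists chosen as the 10 genes were, with earlier results of these data known, were read beside them. Of 20 kinases, adaptors and RAS regulators between RAS and ERK, 4 were higher, 7 lower and 9 not called in A375, and 9 were higher, 7 lower and 4 not called in 1205Lu. Beside these counts and those of the lists that follow stand the shares of all genes tested, 25.7% higher and 25.1% lower in A375 and 20.6% higher and 19.9% lower in 1205Lu. BRAF, the kinase most often mutated in melanoma, rose in 1205Lu from 122.5 ± 2.23 to 186 ± 4.18 CPM (SD, n = 3; log2 fold change 0.59), and so did its scaffold relative KSR1 (0.75). In A375 BRAF rose by 0.12, and the KSR1 change of 0.2 did not pass the test (edgeR adjusted p = 0.14). SOS2 and SHOC2, an exchange factor and a scaffold of the RAS pathway, rose in A375 by 0.63 and 0.52 on the log2 scale, while ARAF fell by 0.51 there. All 3 passed in the same direction in 1205Lu, with log2 fold changes of 0.26, 0.28 and -0.25. NRAS rose in A375 (0.17) and fell by 0.32 on the log2 scale in 1205Lu.

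The list of 18 further inhibitors takes in DUSP phosphatases that act mainly on MAP kinases other than ERK. Of the 18, 17 could be tested in A375 (9 higher, 2 lower) and 15 in 1205Lu (9 higher, 3 lower). SPRY1, a further Sprouty gene, stood between 11.8 and 12.3 CPM with si-NT in A375 and reached 33.3 CPM with si-FOSL1, stood between 0.905 and 1.43 CPM with si-NT in 1205Lu and reached 4.19 CPM with si-FOSL1, and rose by 1.37 and 1.84 on the log2 scale. RGS4, a regulator of G protein signalling, rose in A375 (1.21) and did not exceed 0.223 CPM in 1205Lu. Of 25 further output genes, 24 could be tested in A375 (10 higher, 5 lower) and 25 in 1205Lu (17 higher, 5 lower), with a median log2 fold change of 0.10 and 0.35. JUNB, an AP-1 subunit, rose in both lines (0.97 and 1.01). CCN1, a secreted matrix protein gene, fell by 0.94 on the log2 scale in A375 and rose by 0.81 in 1205Lu, and MYC fell by 0.88 on the log2 scale in A375 and rose by 0.24 in 1205Lu. No list therefore moved in a single direction, and the same held for the 10 genes.

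By likeness of pattern over the 12 samples, each gene had near neighbours among 12614 protein-coding genes, measured as the Euclidean distance between log2 CPM values centred on the gene mean. BRAF was nearest to SPRED1 (0.152), followed by TIPARP (0.186). RCC2 was nearest to DUSP4 (0.142), EIF4H to PHLDA1 (0.164), SEPT9 to ETV5 (0.172) and EVC to SPRED2 (0.183). The distances of STK40 to DUSP5 (0.209), STK17A to SPRY2 (0.244), ABCC1 to ETV4 (0.254) and REV3L to DUSP6 (0.260) were larger, and that of LOXL3 to SPRY4 (0.430) was the largest among the nearest neighbours. No gene of the 10 was among the 3 nearest neighbours of another.

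FRA1 occupancy near the 10 genes was read from the Cut&Run counts. The FRA1 samples held 3354095 to 5316527 reads in peaks in A375 and 583750 to 897407 in 1205Lu, against 383994 and 314569 in the IgG samples, so a peak is measured far more precisely in A375. A peak was called enriched when every FRA1 sample of the line reached 10 counts and also reached 4 times (IgG count + 1), unscaled and untested because each line has 1 IgG sample. By that rule 38 of 69 peaks were enriched in A375 (55.1%, against 57.4% of all peaks), 6 of 69 in 1205Lu (8.70%, against 7.09%) and 4 of 69 in both (5.80%, against 4.5%). At this limit the shares near the 10 genes were close to those of all peaks. With 2 times (IgG count + 1), 58 of 69 were enriched in A375 (81.0% of all peaks) and 20 of 69 in 1205Lu (15.6% of all peaks), and with 8 times, 20 of 69 (26.7%) and 3 of 69 (2.06%), so in 1205Lu the comparison with all peaks depended on the limit. Leaving out 1205Lu FRA1 replicate 1, the shallowest sample, raised the 1205Lu count from 6 to 14, and the share of all peaks without it was not computed. When counts were first scaled to the same total in peaks, 0 and 2 of 69 were enriched in A375 and 1205Lu. Over all peaks the shares were then 0.522% and 2.2%. That total holds the FRA1 signal itself, so this scaling also removes enrichment shared by most peaks. It cannot tell such enrichment from a difference in sequencing depth.

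Peaks lay unevenly among the genes. SPRED2, the longest at 121.8 kb, had 13 peaks, DUSP5 had 12 within a window of 113.6 kb, SPRY4 had 10, ETV4 and PHLDA1 8 each, DUSP4 5, and DUSP6, SPRED1 and ETV5 4 each. SPRY2 had 1, at its own promoter, with 23, 42 and 29 reads in A375 and 3, 20 and 17 reads in 1205Lu, against 6 and 4 with IgG, and relative to the total in peaks it was higher in 1205Lu (log2 A375 over 1205Lu -1.45, SE 0.372, edgeR adjusted p = 0.0020). By the rule above, this SPRY2 peak was not enriched over IgG in either line. Of the 69 peaks, 19 lay within 3 kb of an annotated start of the gene, and for 63 of 69 the nearest annotated start was that of the gene itself. Of the 19 promoter peaks, 8 were enriched in A375 and 0 in 1205Lu, against 57.4% and 7.09% of all peaks at any position. The share among all promoter peaks was not computed.

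Between replicates 2 and 3 of the 1205Lu FRA1 samples the counts differed by about as much as sampling noise alone gives (chi-square over its degrees of freedom 1.01, where noise alone gives 1, against 1.07 to 1.64 for the other pairs of FRA1 samples), and they were summed and counted as 1 sample, so the test between lines compared 3 samples with 2. It found more FRA1 in 1205Lu, relative to the total in peaks, at 27 of 69 peaks (39.1%, against 24.3% of 53300 peaks tested) and more in A375 at 12 (17.4%, against 29.0%). This test did not use IgG, so more FRA1 here means a larger share of the FRA1 reads in peaks. By the rule above, 6 of 69 peaks were enriched over IgG in 1205Lu, so most of the 27 were not, and none of the ETV5 peaks was. Peaks of one gene share a locus and are not independent. With DESeq2 the counts were 27 and 5, against 23.8% and 18.4% of all peaks. Without A375 FRA1 replicate 1 they were 26 and 7, against 23.8% and 22.8%. With at least 10 counts in every sample, 31 peaks could be tested and 11 had more FRA1 in 1205Lu, against 32.4% of all peaks, so the share near the 10 genes was then close to that of all peaks. SPRED2 alone held 10 of the 27 peaks with more FRA1 in 1205Lu, and all 4 peaks of ETV5 were among them, while 3 of the 8 peaks of PHLDA1 and none of those of ETV5, SPRED1 or SPRY2 had more in A375.

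**Figure D4:**
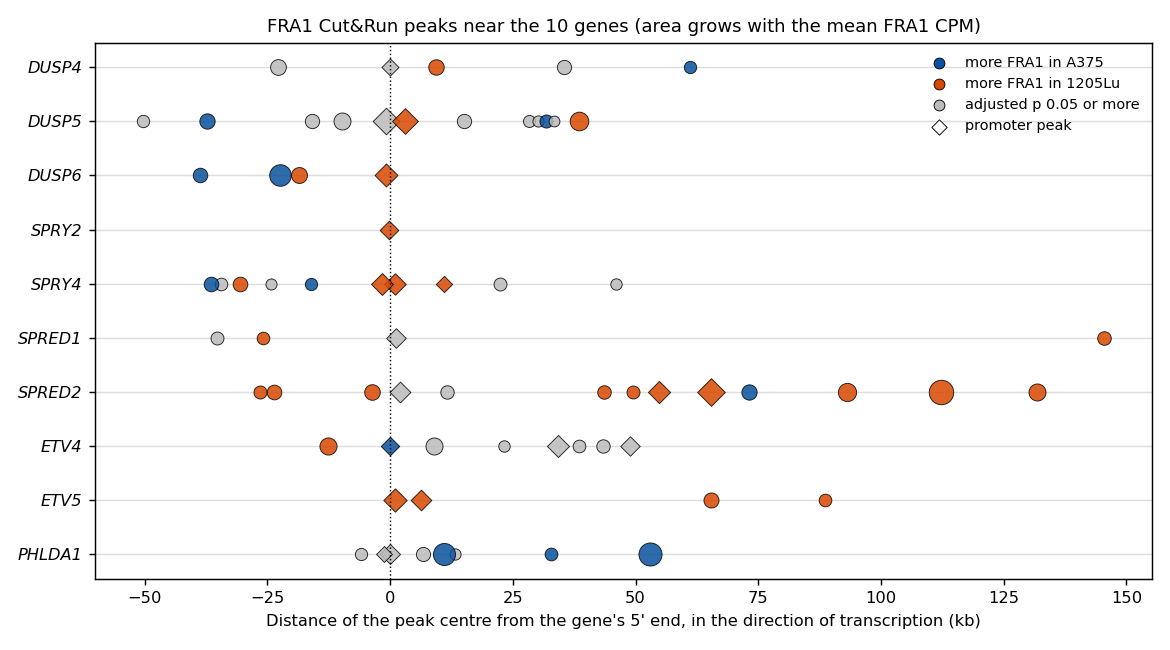
The 69 FRA1 peaks near the 10 genes, by the distance in kb of the peak centre from the 5′ end of the gene in the direction of transcription. Diamonds are promoter peaks, and the symbol area grows with the mean FRA1 CPM of both lines. Colour gives the test between lines, which does not use IgG. The peaks of SPRED2 and ETV5 are mostly those with more FRA1 in 1205Lu, and the highest peaks of PHLDA1 and DUSP6 are among those with more in A375.

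Distances below are from the 5′ end of the gene to the peak centre, positive in the direction of transcription, and counts are reads per sample as deposited. At PHLDA1, the peak at 53.0 kb had 673, 973 and 859 reads with FRA1 and 28 with IgG in A375, and 74, 106 and 89 against 15 in 1205Lu. The peak at 10.9 kb had 617, 866 and 706 reads against 17 in A375, and 41, 90 and 86 against 9 in 1205Lu. Both lie beyond the 3′ end of the gene, both were enriched in both lines, and they held more FRA1 than any other peak near the 10 genes in A375. Relative to the total, both were higher in A375 (log2 0.54, SE 0.204, edgeR adjusted p = 0.029, and log2 0.72, SE 0.229, edgeR adjusted p = 0.010), but not with DESeq2 (adjusted p = 0.26 and 0.21), nor without any single A375 FRA1 sample or 1205Lu FRA1 replicate 1 (edgeR adjusted p from 0.11 to 0.47 and from 0.056 to 0.33). The promoter of PHLDA1 itself, at the start, had 40, 58 and 58 reads against 23 with IgG in A375 and was not enriched.

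At DUSP6, the peak at -22.4 kb had 520, 800 and 673 reads against 23 in A375 and 44, 79 and 66 against 15 in 1205Lu. It was the highest of the DUSP6 peaks in both lines, and more so in A375 (log2 0.74, SE 0.212, edgeR adjusted p = 0.0050), though not with DESeq2 (log2 0.56, adjusted p = 0.12), nor without A375 FRA1 replicate 1 (log2 0.63, edgeR adjusted p = 0.25) or replicate 3 (log2 0.74, edgeR adjusted p = 0.055). Another peak, at -38.7 kb and nearest to the start of POC1B, had 110, 160 and 132 reads against 11 in A375, and 6, 0 and 3 against 1 in 1205Lu. By the unscaled rule it was enriched in A375, and it was near the IgG count in 1205Lu. Relative to the total it was higher in A375 (log2 2.75, SE 0.396, edgeR adjusted p = 2.2e-06). With counts scaled to the same total in peaks, which also removes enrichment shared by most peaks, it was not enriched over IgG in A375. Nor was any other peak near the 10 genes. At DUSP5, 10 of 12 peaks were enriched in A375, against 57.4% of all peaks, and 0 in 1205Lu, against 7.09%, and none of the 12 was enriched in A375 with counts scaled to the same total. Relative to the total, 2 had more FRA1 in A375 and 2 in 1205Lu. The latter were a promoter peak at 3.1 kb (log2 -0.70, SE 0.195, edgeR adjusted p = 0.0039) and 1 at 38.4 kb (log2 -1.15, SE 0.189, edgeR adjusted p = 1.4e-05). In 1205Lu they had 34, 66 and 48 reads against 10, and 44, 74 and 64 against 12. With at least 10 counts in every sample, the 3.1 kb peak did not pass (log2 -0.08, edgeR adjusted p = 0.69). The DUSP5 promoter peak at -0.9 kb had 241, 378 and 286 reads against 26 in A375 and 31, 57 and 45 against 15 in 1205Lu, and relative to the total the difference did not pass the test (log2 0.09, SE 0.203, edgeR adjusted p = 0.74). It passed, higher in A375, with at least 10 counts in every sample (log2 0.71, edgeR adjusted p = 0.0015), and without 1205Lu FRA1 replicate 1 it was -0.32 (edgeR adjusted p = 0.083).

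At SPRED2, the intronic peak at 112.3 kb was the strongest of the gene in both lines, with 389, 645 and 547 reads against 13 in A375 and 140, 287 and 235 against 15 in 1205Lu. Relative to the total it was higher in 1205Lu (log2 -1.36, SE 0.207, edgeR adjusted p = 4.9e-06). Another intronic peak of SPRED2, at 93.1 kb and named here after its values were seen, had 4, 5 and 5 reads against 3 with IgG in A375, and 61, 99 and 76 against 5 in 1205Lu. The A375 samples were thus near the IgG count and the 1205Lu samples far above it (log2 -6.71, SE 0.260, edgeR adjusted p = 1.4e-15). The promoter peak at 65.4 kb, at a downstream start, had 134, 210 and 178 reads against 15 in A375 and 46, 120 and 103 against 17 in 1205Lu (log2 -1.66, SE 0.216, edgeR adjusted p = 4.6e-07).

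The ETV genes each had a peak of this kind. The ETV4 peak at -12.6 kb had 2, 4 and 2 reads against 7 with IgG in A375, and 48, 70 and 57 against 5 in 1205Lu (log2 -7.06, SE 0.296, edgeR adjusted p = 3.1e-15). The ETV5 peak at 65.3 kb, just beyond the end of the gene, had 2, 1 and 1 reads against 3 in A375, and 20, 46 and 34 against 7 in 1205Lu (log2 -7.14, SE 0.425, edgeR adjusted p = 7.0e-13). In A375 neither exceeded IgG. The ETV5 promoter peak at 0.9 kb had 72, 109 and 96 reads against 18 in A375 and 27, 39 and 37 against 9 in 1205Lu, while the ETV4 promoter peak at the start had 43, 90 and 65 against 8 and 5, 4 and 3 against 10. ETV4 mRNA was higher in A375 and ETV5 mRNA in 1205Lu with si-NT, as given above.

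**Figure D5:**
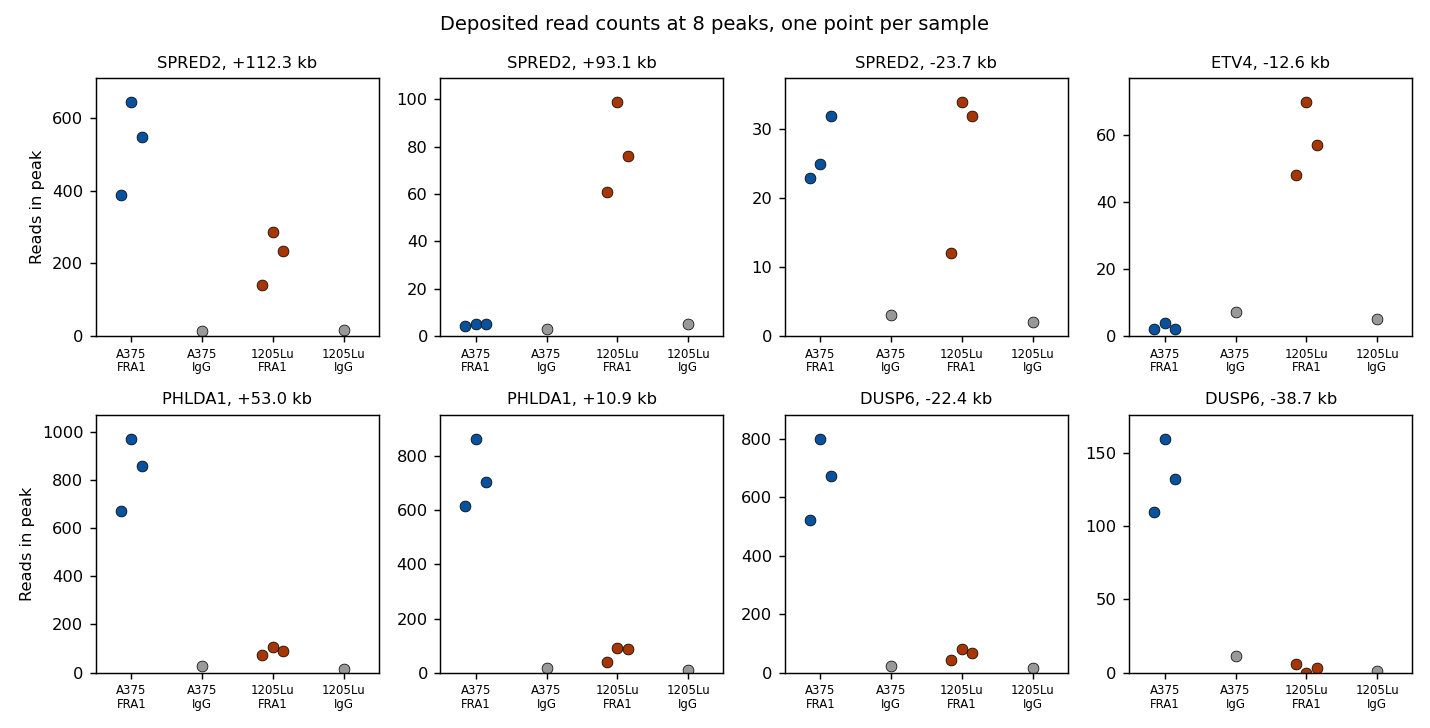
Deposited reads per sample, on axes from 0, at the 6 peaks near the 10 genes that were enriched in 1205Lu and at the 2 highest DUSP6 peaks of A375. Points are samples (3 with FRA1 and 1 with IgG per line) and titles give the distance from the 5′ end of the gene. The SPRED2 peak at 93.1 kb and the ETV4 peak at -12.6 kb rise above IgG in 1205Lu alone, and the DUSP6 peak at -38.7 kb has 110 to 160 FRA1 reads in A375 and 0 to 6 in 1205Lu.

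FRA1 binds DNA as a dimer with a JUN protein at the AP-1 element TGACTCA, which reads TGAGTCA on the other strand. The element lay within 100 bases of the centre of 17 of the 69 peaks (24.6%), against 28.5% of all 54563 peaks. The sites below are shown because they lie in the strongest FRA1 peaks discussed above or at the centre of a peak of another of the genes. Each is 27 bases of the plus strand of GRCh38 with the AP-1 element in capitals, and each occurs once in that genome.
PHLDA1, 10.9 kb, chr12:76020872-76020898: tttgaggtcaTGAGTCAgctctgacgg
PHLDA1, 53.0 kb, chr12:75978042-75978068: ggcatctgagTGACTCAcccagaaaac
DUSP6, -22.4 kb, chr12:89374310-89374336: aaatattcagTGAGTCAtgcctggtgt
DUSP6, -38.7 kb, chr12:89391438-89391464: aacacactgcTGACTCActgaccacct
DUSP5, downstream, chr10:110512998-110513024: catcggcgggTGAGTCActggagggta
SPRY4, -36.5 kb, chr5:142362924-142362950: ggcccagtgaTGAGTCAtgctggagtg
SPRED1, 145.5 kb, chr15:38398308-38398334: taatggcggcTGACTCAttgtgtgctg
SPRED2, 54.8 kb, chr2:65377871-65377897: tccacggagcTGACTCAtactctcttt
ETV5, 0.9 kb, chr3:186109434-186109460: gaagcttagcTGAGTCAgtgaagcact

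The PHLDA1 element at 10.9 kb lay 21 bases from the peak centre on the plus strand and that of SPRY4 at -16 bases, whereas the DUSP6 element shown in the peak at -22.4 kb lay at -550 bases in a peak 2869 bases wide, and 3 further AP-1 elements lay in that peak. Of these, 1 sits in a 27-base stretch found 113 times in the genome. The ETV4 peak at 9.0 kb, the highest of that gene in A375 (179, 245 and 213 reads against 8), holds its central element in a stretch found 97 times. Whether any reads there come from copies elsewhere was not tested. No AP-1 element was found in the SPRED2 peaks at 112.3 and 93.1 kb, the ETV4 peak at -12.6 kb or the ETV5 peak at 65.3 kb, which says only that these letters are not in those windows. The SPRY4 peak shown had 89, 131 and 107 reads against 7 in A375 and 9, 6 and 11 against 6 in 1205Lu.

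Promoter sequences from RefSeq (GRCh38.p14, 250 bases before to 50 after the start) matched 6 of the 10 genes: DUSP6, SPRY2, SPRY4, SPRED1, SPRED2 and PHLDA1. None of the 6 held the AP-1 element, which 4.95% of 35116 promoters hold, and none held the CRE element (1.85%). The ETS core CCGGAA, or TTCCGG on the other strand, was found in 2, against 17.2% of all promoters, and these are shown because ETV4 and ETV5 belong to the family that binds it. Each is given on the strand of its gene with the core in capitals.
SPRY2, chr13:80341263-80341268, at -142 bases from the start: cctgcctcctCCGGAAaggcgagggc
PHLDA1, chr12:76031860-76031865, at -89 bases from the start: ggagaggagtTTCCGGggctcgggtc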

How the data were processed

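RNA-seq covered 12 samples and Cut&Run 8 (6 with FRA1 antibody, 2 with IgG). For RNA-seq the authors removed adapters (cutadapt 1.8.1), aligned reads with STAR 2.7.7a to GRCh38 and deposited RSEM 1.3.0 expected counts per gene, which were whole numbers in the table. For Cut&Run the authors aligned reads with Bowtie2 2.4.1, called peaks with MACS2 2.1.1.20160309 and deposited raw read counts per consensus peak; the use of single or pooled samples for peak calling is not given in the sources used here. Samples were grouped by the labels' line and siRNA or antibody.

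The 10 genes and the pathway lists were chosen with earlier results of these data known. Counts were tested with edgeR 4.0.16 (R 4.3.3; quasi-likelihood test, TMM, filterByExpr), within each line for silencing and over 12 samples for the difference of responses and the si-NT levels, with Benjamini-Hochberg adjustment over all genes or peaks and a limit of 0.05. CPM values use the TMM sizes of the 12-sample fit. Tables were handled in Python 3.11.15, and gene positions are from the GENCODE annotation of GRCh38. All 10 genes are named, with at most 3 genes per direction, line and list, the 3 nearest genes by likeness, promoter peaks enriched in a line and the 2 highest peaks of each gene per line. The PHLDA1 promoter peak, the SPRED2 peak at 93.1 kb and the downstream DUSP5 peak whose site is shown fall outside this rule and were chosen after their values were seen. The alternatives tried were DESeq2 1.42.0, other normalizations, filters, thresholds and windows, and leaving out each replicate. On simulated counts for silencing in A375, 79 of 79 genes averaging 100 counts or more were recovered at a planted log2 change of 1 and 32 of 66 at 0.3. Of 16551 genes tested there, 102 carried a change of 1 and 94 a change of 0.3, whereas 50.8% passed in the data, so these rates may not carry over. For peaks between lines at a planted log2 change of 1, 15 of 20 averaging 100 counts or more were recovered, and 28 of 96 at any count. The result of 1 gene of the pathway lists is not reported here.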

Additional observations from a re-analysis of the deposited data

Results flagged for a closer look

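The response to si-FOSL1 differed between A375 and 1205Lu by a test of the difference itself (edgeR, adjusted p under 0.05; A375 log2 fold change minus that of 1205Lu) for 9 of the 10 genes, against 31.9% of all genes tested. Of genes with at least 10 counts in every sample, as the 10 have, 6130 of 13399 passed. The difference was 0.75 for DUSP6, 0.67 for SPRY4 and 0.42 for SPRY2, which were more positive in A375. It was -0.68 for DUSP5, -0.58 for ETV4, -0.46 for SPRED1, -0.40 for DUSP4, -0.39 for ETV5 and -0.22 for SPRED2.

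Among the named genes of the other pathway lists, 20 reported here differed in the same test, which 31.9% of all genes tested passed. These genes were named for their large changes within a line, which favours a difference between lines, so the count says nothing about the lists as such. Between RAS and ERK the differences were 0.48 for NRAS, 0.36 for SOS2, 0.35 for MAPK3 and 0.23 for SHOC2, and -0.56 for KSR1, -0.48 for BRAF, -0.44 for RASA2, -0.28 for SHC1 and -0.27 for ARAF. Among inhibitors they were 0.38 for PEBP1, -0.35 for SPRED3, -0.43 for DUSP7 and -1.22 for DUSP2. DUSP2 was low, with a mean of 1.17 CPM in A375 and 1.15 CPM in 1205Lu with si-NT. Its change in 1205Lu did not pass without si-NT replicate 1 (edgeR adjusted p = 0.054) or si-FOSL1 replicate 3 (edgeR adjusted p = 0.068). Among output genes the differences were 0.83 for UPP1, 0.37 for LIF, 0.36 for RPS6KA1, -0.11 for ELK3, -1.13 for MYC, -1.45 for MAFF and -1.76 for CCN1, the largest of those given here.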

How the results depend on the processing

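The counts of genes among the 10 that passed the test stayed within 1.5 times their value under every alternative run but the limit on fold, which left 0 higher and 0 lower in A375 and 0 and 0 in 1205Lu. Leaving out each sample in turn gave 3 to 4 higher and 6 lower in A375, 5 higher and 2 to 4 lower in 1205Lu, 3 and 6 for the difference between lines, and 2 and 7 for the levels with si-NT. Of 590 values recomputed for the 10 genes, 577 kept their direction and side of the threshold, 5 lost the call, 6 gained it and 2 moved. With the replicate number as a block, the counts were 4 and 6 in A375, 5 and 3 in 1205Lu, and 3 and 6 for the difference between lines. Samples with the same number deviated together little, if at all (r 0.017 to 0.047 in A375 and -0.008 to -0.005 in 1205Lu). For samples with different numbers, r ran from -0.05 to 0.01 in A375 and from -0.008 to 0.016 in 1205Lu. In A375 the values with the same number were thus slightly higher, and these values do not settle whether samples were paired. No block was fitted for Cut&Run.

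Counts of peaks depended on the settings. With 2 times IgG plus 1, 58 of 69 peaks were enriched in A375 (81.0% of all peaks), 20 in 1205Lu (15.6%) and 16 in both. Of the 19 promoter peaks, 17 were enriched in A375 and 6 in 1205Lu at that limit, with no share over all promoter peaks computed. With 8 times, the counts in A375, 1205Lu and both were 20 (26.7%), 3 (2.06%) and 1, with 3 promoter peaks in A375. Scaling to the same total gave 0, 2 and 0, with 0 promoter peaks in A375. Windows of 100 kb gave 61 of 108 in A375, and windows of 20 kb gave, of 49, 2 in both lines and 5 with more FRA1 in A375. Leaving out each sample in turn gave 38 to 53 enriched in A375, 6 to 14 in 1205Lu and 4 to 11 in both, with the highest values of the last 2 counts without 1205Lu FRA1 replicate 1. The shares of all peaks were not computed for these settings. It gave 7 to 12 with more FRA1 in A375, the lowest without A375 FRA1 replicate 1, and 23 to 33 with more in 1205Lu. DESeq2 gave 5 with more in A375, and at least 10 counts in every sample gave 11 of 31 tested with more in 1205Lu, against 32.4% of all peaks under that filter, a share close to that of all peaks. That filter also reversed the DUSP6 promoter peak at -0.9 kb (log2 0.07, edgeR adjusted p = 0.80). Beyond what these settings change by construction, the cause was not tested. With 1 IgG sample per line, enrichment has no replicate check, and low reads in 1205Lu limit what could be detected there.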
